A study of Mus musculus with 13 samples.

Results

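Zic1, Zic2, Zic4 and Zic5 are 4 of the 55487 genes counted by RNA-seq in cultured mouse embryonic fibroblasts (MEFs). They were chosen by name, with their levels before and after immortalization known, and are given in CPM, read counts scaled to library size. The 13 libraries were made from poly-A RNA of MEFs before and after spontaneous immortalization, in which cells are passaged until they senesce and the colonies that grow out later are kept as lines. There were 3 wild-type (WT) primary cultures from embryos numbered 3, 4 and 5 and the 3 lines derived from them, and 3 primary cultures labelled Prkd3-/- (clones 13, 14 and 15) with 4 lines (13, 13a, 14 and 15, of which 13 and 13a share a clone number). Primary cells were grown in medium with 10% fetal calf serum, and the serum was raised to 20% after senescence and, by the methods for WT cultures, set back to 10% once lines had formed, so immortalization and this serum history cannot be told apart. Each WT line grew out of colonies that arose in a senescent culture. How the lines labelled Prkd3-/- arose is not given in the sources used here.

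Zic proteins are transcription factors with a row of C2H2 zinc fingers like those of the Gli proteins, the transcription factors of Hedgehog signalling. They are known from the dorsal neural tube, the neural crest and the somites of the embryo, where ZIC1 and ZIC4 loss is linked to cerebellar malformation and ZIC2 loss to holoprosencephaly. The genes lie in head-to-head pairs, read in opposite directions: Zic1 with Zic4, and Zic2 with Zic5.

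Zic1 (ENSMUSG00000032368) lies on the minus strand at chr9:91358058-91365810 and Zic4 (ENSMUSG00000036972) on the plus strand at chr9:91362413-91389348 (GRCm38). Zic5 (ENSMUSG00000041703) lies on the minus strand at chr14:122456795-122465677 and Zic2 (ENSMUSG00000061524) on the plus strand at chr14:122475435-122479852, with 9758 bases between their 5′ ends. A noncoding RNA gene, 2610035F20Rik, lies in this gap on the minus strand at chr14:122470284-122475199, and its 5′ end is 236 bases from that of Zic2. The annotated exons of Zic1 and Zic4 share 60 bases, which are coding sequence of Zic1 and untranslated sequence of a Zic4 transcript. Read pairs in the WT libraries were counted without regard to strand and for every gene they overlapped, so a pair in this stretch counts for both genes.

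The coding window in which the 4 genes are most alike is shown because near-identical members could share reads. It is 90 bases long, lies in a single coding exon of each gene within the stretch that encodes the zinc fingers, and is written 5′ to 3′ on the coding strand, with capitals where a base differs from Zic1. Between 79 and 84 of the 90 bases were identical to Zic1. The windows lie at chr9:91364199-91364288 for Zic1, chr14:122476495-122476584 for Zic2, chr9:91379150-91379239 for Zic4 and chr14:122464055-122464144 for Zic5 (GENCODE M21 transcripts, GRCm38).
Zic1: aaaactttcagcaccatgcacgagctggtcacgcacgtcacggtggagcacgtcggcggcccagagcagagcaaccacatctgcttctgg
Zic2: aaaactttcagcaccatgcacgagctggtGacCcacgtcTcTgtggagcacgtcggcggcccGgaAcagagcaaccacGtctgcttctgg
Zic4: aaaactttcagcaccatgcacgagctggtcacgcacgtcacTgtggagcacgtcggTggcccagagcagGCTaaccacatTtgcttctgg
Zic5: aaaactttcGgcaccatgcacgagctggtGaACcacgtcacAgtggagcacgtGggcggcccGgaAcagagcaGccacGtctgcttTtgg
The longest exact run shared by any 2 members was 42 bases, between transcripts of Zic1 and Zic4, and the runs of the other combinations were 20 to 35 bases.

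The sequences upstream of the RefSeq starts are shown because the levels of Zic1 and Zic4 went together, as given below. Counts per gene do not show which start was used in these cells. RefSeq (GRCm38.p6) gave a promoter for Zic1, Zic4 and Zic5. The bases printed are those of the promoter window that come before any annotated coding-transcript exon inside it. The motifs CCAAT and GGGCGG, on either strand, are in capitals. For Zic4, a coding transcript has an exon farther upstream, at chr9:91362413-91362518. They lie at chr9:91365819-91366018 on the minus strand for Zic1, chr9:91368722-91368811 on the plus strand for Zic4 and chr14:122465709-122465908 on the minus strand for Zic5.
Zic1: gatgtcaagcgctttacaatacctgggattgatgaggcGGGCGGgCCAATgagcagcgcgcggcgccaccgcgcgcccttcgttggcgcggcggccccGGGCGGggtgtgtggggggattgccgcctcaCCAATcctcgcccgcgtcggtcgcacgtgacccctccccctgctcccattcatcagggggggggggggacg
Zic4: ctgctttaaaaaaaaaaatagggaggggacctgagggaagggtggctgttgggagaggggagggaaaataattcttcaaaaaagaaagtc
Zic5: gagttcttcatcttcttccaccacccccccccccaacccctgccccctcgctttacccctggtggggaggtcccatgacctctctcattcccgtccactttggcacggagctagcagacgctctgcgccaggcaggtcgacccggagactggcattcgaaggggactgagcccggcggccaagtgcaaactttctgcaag
In the whole window of 300 bases, the Zic1 promoter held 31 CpG dinucleotides, more than 89.4% of the 32851 promoters of that length. Zic5 held 15 and Zic4 held 8, beside a median of 7 over all promoters. CCAAT was found 2 times in the Zic1 window and in neither of the others, and 37.4% of all promoters held it. GGGCGG was found 3 times for Zic1, 1 time for Zic5 and not for Zic4, and 35.7% of all promoters held it.

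Totals ranged from 55436367 to 90654323 counts in the WT libraries and from 35273408 to 100441756 in those labelled Prkd3-/-, so that 3 counts, the limit that a count of 0 allows, corresponded to 0.0279 to 0.0848 CPM. Intervals and limits cover counting error only, since copies made by PCR are not independent molecules. Prkd3, the gene named in the genotype label, was still counted in every library, at 69.7 to 93.6 CPM in WT and 33.8 to 61.1 CPM in the libraries labelled Prkd3-/-. A deletion of single exons is not visible in counts per gene. The fibroblast genes Col1a1, Col1a2, Col3a1, Pdgfra, Pdgfrb, Thy1, Dcn, Lum and Vim each reached 1 CPM in every group. The 2 genotypes came in separate tables, so genotype and table cannot be told apart.

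All 4 Zic genes were present in WT primary MEFs, at levels that differed little between embryos. Zic1 was at 12.4, 12.4 and 10.4 CPM in clones 3, 4 and 5 (11.7 ± 1.17, SD, n = 3). Zic4 was at 2.91, 3.00 and 2.66 CPM (2.86 ± 0.173). For Zic2 the values were 3.31, 4.02 and 3.67 CPM (3.66 ± 0.355), and for Zic5 they were 0.80, 0.83 and 0.67 CPM (0.765 ± 0.0868). Per kilobase of all annotated exon bases, Zic1 was highest with 1.82 to 2.18 CPM per kb. Zic2 followed with 1.15 to 1.39, Zic4 with 0.258 to 0.290 and Zic5 with 0.136 to 0.170 CPM per kb, and no neighbours in this order overlapped. The lengths used were 5693 bases for Zic1, 2880 for Zic2, 4889 for Zic5 and 10335 for Zic4, which has 12 annotated transcripts. Which transcripts these cells held was not measured, so values per kilobase depend on the annotation.

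In the 3 WT lines the 4 genes were at or near 0. Zic1 had 1, 23 and 5 counts in lines 3, 4 and 5, which is 0.0164, 0.389 and 0.0757 CPM. Zic4 had 1, 6 and 0 counts. Zic2 had 0 counts in all 3 lines, which allows up to 0.0454 to 0.0507 CPM, and Zic5 had 0, 1 and 0 counts. Every line was thus below every primary library for each member, a pattern that 17.2% of the 21197 genes that passed the filter over 13 libraries showed in this direction.

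The WT folds were large for all 4 members. The mean of the lines was 73.3-fold lower than that of the primary cells for Zic1 (95% counting interval 50.9 to 109.6) and 72.7-fold lower for Zic4 (35.1 to 181.7). Zic2 was at least 72.2-fold lower, with 3 counts per library as the floor. The single Zic5 count gave a ratio of 136 (24.0 to 5393). Most of the counts left came from line 4, with 23 of the 29 Zic1 counts and 6 of the 7 Zic4 counts in the WT lines. Fitted Log2FC values (log2 fold change, immortalized over primary) were -6.19 for Zic1, -6.16 for Zic4, -10.93 for Zic2 and -6.72 for Zic5, of which those with lines at 0 depend on the prior count, and without line 4 they were -7.91 for Zic1 and -8.20 for Zic4. These values chose the members, so they are given with no test. Markers of other cells also differed between these groups. The 4 endothelial genes listed summed to 5.37 to 6.75 CPM in WT primary cells and 0.229 to 1.64 CPM in WT lines, and the 4 epithelial genes to 2.28 to 2.61 and 0.147 to 0.473 CPM. In the libraries labelled Prkd3-/- the endothelial sum was 4.16 to 22.2 CPM in primary cells and 1.07 to 12.4 CPM in lines, and the epithelial sum 1.10 to 2.63 and 0.347 to 4.29 CPM. The part of these cells in the Zic values was not tested.

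**Figure D1:**
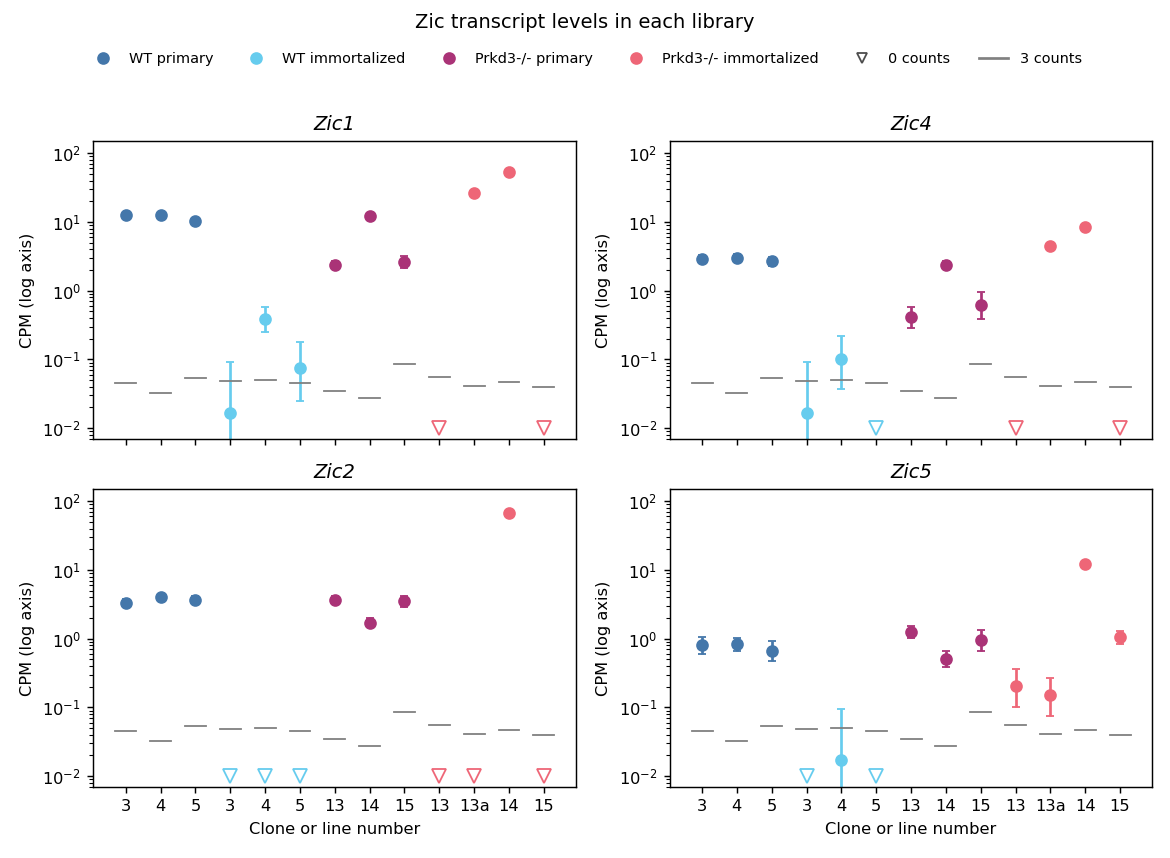
CPM of each Zic gene (log axis) in the 13 libraries, ordered by group and named by clone or line number, with bars for the exact 95% Poisson interval of the count, grey lines at 3 counts and open triangles, placed near the bottom of the axis, for libraries with 0 counts. All 3 WT lines lie below the WT primary libraries for each gene, while Zic2 has counts in line 14 alone among the 7 lines and Zic5 has counts in all 4 Prkd3-/- lines.

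Primary cells labelled Prkd3-/- also held all 4 transcripts, but varied more between clones than the WT embryos. Zic1 was at 2.35, 12.2 and 2.63 CPM in clones 13, 14 and 15, and Zic4 at 0.416, 2.40 and 0.622 CPM. Clone 14 was thus high for the chromosome 9 pair, at about the WT level. Zic2 was at 3.69, 1.70 and 3.48 CPM and Zic5 at 1.26, 0.511 and 0.961 CPM, so that clone 14 was the lowest of the 3 for the chromosome 14 pair.

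Genotypes were compared in primary cells. The levels in these primary libraries were known when the members were chosen, so the Log2FC values of members are given with no test. Over all genes, at an adjusted p under 0.01 and a Log2FC of at least 1 in size, edgeR called 156 of 20403 (0.765%). Log2FC (labelled Prkd3-/- over WT) was -0.998 ± 0.653 (SE) for Zic1 and -1.26 ± 0.64 for Zic4. It was -0.30 ± 0.30 for Zic2 and 0.26 ± 0.36 for Zic5. The size of the difference for the chromosome 9 pair depended on clone 14. Without it Log2FC was -2.24 for Zic1 and -2.53 for Zic4. Over all genes edgeR then called 1456, beside 156 with this clone. Clone 14 is also the library of its group that was at the WT level, so nothing is read from the values without it. DESeq2, with all libraries, called 836 of 22563 genes (3.71%).

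Clone 14 also stood apart in markers of macrophages. The 6 macrophage genes listed (Ptprc, Cd68, Csf1r, Tyrobp, Adgre1 and C1qa) summed to 651.8 CPM in primary clone 14, beside 75.3 and 165.3 CPM in clones 13 and 15 and 486.6 to 491.8 CPM in the WT primary libraries. In the lines the sum was 25.1 to 80.9 CPM in WT and 9.68 to 120.8 CPM in those labelled Prkd3-/-. Over primary libraries, then, Zic1 and Zic4 were high where macrophage markers were high, and in the WT lines both were low. Line 13a, with Zic1 at 26.2 CPM and Zic4 at 4.49 CPM, had the highest sum of the lines (120.8 CPM). Line 14 had the lowest sum of the 13 libraries and the highest Zic1, Zic2, Zic4 and Zic5. Fewer cells of a type and less RNA per cell cannot be told apart in bulk RNA, and the part of macrophages in the Zic values was not tested.

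The 4 lines labelled Prkd3-/- went in different directions. Zic1 had 0 counts in lines 13 and 15, which allows up to 0.0552 and 0.0401 CPM, but was at 26.2 CPM in line 13a (1918 counts) and at 53.9 CPM in line 14 (3403 counts). Zic4 followed it, with 0 counts in lines 13 and 15, 4.49 CPM in line 13a and 8.45 CPM in line 14. Both values of each gene lay above all primary libraries of either genotype, and both zeros below them. Thus no member lay wholly below or wholly above the primary libraries in this genotype, patterns shown by 5.97% and 3.81% of genes.

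Zic2 was at 0 counts in lines 13, 13a and 15 and at 66.6 CPM in line 14 (4202 counts). Zic5 was highest in line 14 as well, at 12.4 CPM (780 counts). In line 15 Zic5 was at 1.04 CPM (78 counts), and in lines 13 and 13a at 0.202 and 0.150 CPM (11 counts in each). Line 15 therefore kept Zic5 at the level of primary cells while Zic1, Zic2 and Zic4 were at 0. Line 13a held the chromosome 9 pair and not Zic2 and line 14 held both pairs. Per kilobase, Zic2 was highest in line 14 with 23.1 CPM per kb, followed by Zic1 with 9.47, Zic5 with 2.53 and Zic4 with 0.817, so that Zic2 stood above Zic1 and Zic5 above Zic4, unlike in WT primary cells. This order was already present in primary clones 13 and 15, where Zic2 was at 1.28 and 1.21 CPM per kb and Zic1 at 0.414 and 0.462, and where Zic5 was at 0.257 and 0.196 and Zic4 at 0.0402 and 0.0601. Primary clone 14 had the WT order.

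Compared with the primary library of the same number, line 14 had 4.40-fold more Zic1 (95% counting interval 4.13 to 4.70), 3.52-fold more Zic4 (3.03 to 4.10), 39.1-fold more Zic2 (33.7 to 45.6) and 24.2-fold more Zic5 (18.4 to 32.4). All 4 members were at least 2-fold higher there, a change shown by 13% of 21197 genes in this line. Line 13a had 11.1-fold more Zic1 (9.62 to 12.9) and 10.8-fold more Zic4 (7.65 to 15.7) than primary clone 13, and Zic2 was at least 90.2-fold lower. Of the members, 2 were at least 2-fold higher in line 13a (8.56% of genes) and 2 at least 2-fold lower (9.2%). Line 13, from the same clone number, had all 4 at least 2-fold lower (25.3%). In line 15, 3 of 4 were at least 2-fold lower (15.4%), and the ratio for Zic5 was 1.09 (0.717 to 1.67). In WT lines 3, 4 and 5 all 4 were at least 2-fold lower, beside 17.8%, 16.1% and 13.7% of genes. These ratios compare single libraries and have no replicate check. Across genes, the deviations of line 13a correlated more with primary clone 14 (r = 0.336) than with its own clone 13 (r = -0.283), and those of line 13 more with clone 15 (0.305) than with clone 13 (0.141).

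**Figure D2:**
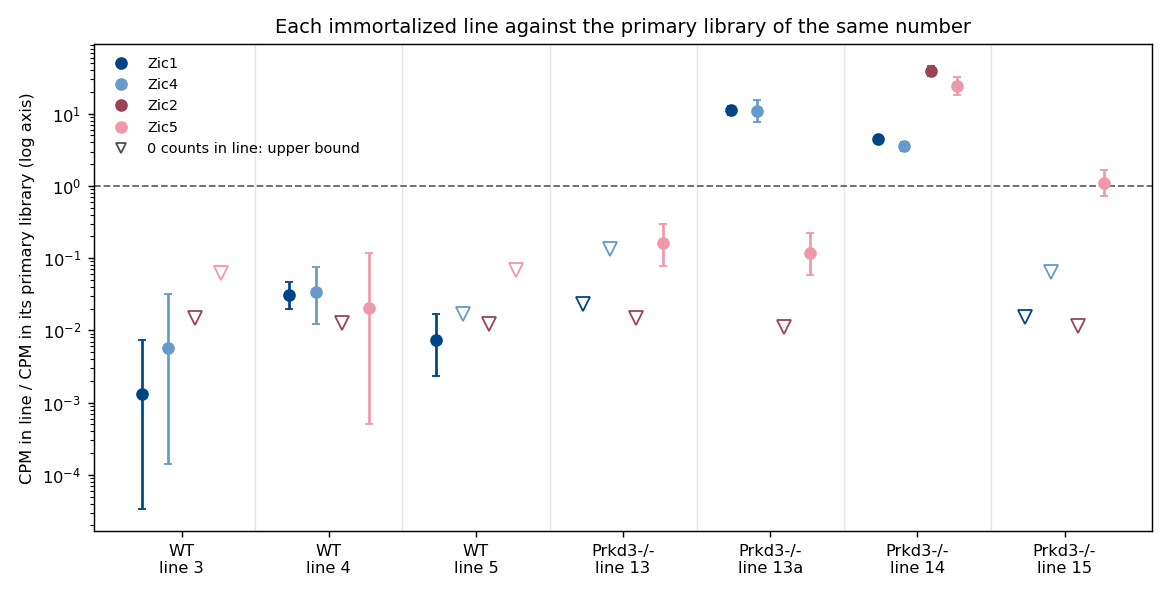
Ratio of CPM in each of the 7 lines to CPM in the primary library of the same number (log axis, dashed line at 1), with bars for the 95% counting interval and open triangles for the upper bound where the line had 0 counts. All 4 genes lie above 1 in line 14, Zic1 and Zic4 alone lie above 1 in line 13a, and Zic5 in line 15 has an interval that includes 1.

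No state effect could be fitted closely in this genotype. Fitted Log2FC (immortalized over primary) was 1.79 ± 2.22 (SE) for Zic1, 1.48 ± 1.99 for Zic4, 2.49 ± 2.76 for Zic2 and 1.91 ± 1.51 for Zic5, given without a test since these values chose the members. edgeR called 0 of 20298 genes (0%), with 1331 (6.56%) at an unadjusted p under 0.05, and DESeq2 called 190 (0.781%). The sign rested on line 14 for the chromosome 14 pair. Without this line Log2FC was -10.73 for Zic2 and -0.94 for Zic5, and with the embryo as a block it was -6.43 and -0.39.

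The difference in state effect between genotypes was fitted over all 13 libraries. It was 7.98 ± 3.03 on the log2 scale for Zic1, 7.63 ± 2.77 for Zic4, 13.45 ± 5.33 for Zic2 and 8.64 ± 2.36 for Zic5 (higher after immortalization in the libraries labelled Prkd3-/-). Since the levels in the lines entered the choice of members, these values are given with no test. Over all genes, at an adjusted p under 0.05, edgeR called 0 of 21197 (0%), with 841 (3.97%) at an unadjusted p under 0.05, while DESeq2 called 37 (0.178%). With the embryo as a block the difference was 4.63 for Zic2 and 6.43 for Zic5, and 0 genes were called, with 426 at an unadjusted p under 0.05. Without line 14 it was 0.31 ± 398.2 for Zic2, which then had 0 counts in all 6 lines left.

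Between the lines of the 2 genotypes, 2 of the 4 members passed the filter on low counts. Zic5 passed through the lines labelled Prkd3-/-, and Zic1 through lines 13a and 14 together with WT line 4 (23 counts). Log2FC was 6.95 ± 3.04 (SE) for Zic1 and 8.86 ± 2.42 for Zic5, given with no test since these levels were known when the members were chosen. Over all genes edgeR called 8 of 19683 (0.0406%). For Zic5 every line labelled Prkd3-/- lay above every WT line, as for 4.23% of the 21197 genes. For Zic1 the 4 values labelled Prkd3-/- lay on both sides of the WT lines.

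Zic1 and Zic4 were counted in a narrower range of ratios than of levels. Zic4 made up 19.0%, 19.4% and 20.4% of the counts of its pair in WT primary clones 3, 4 and 5. In primary cells labelled Prkd3-/- the share was 15%, 16.4% and 19.1%, and in lines 13a and 14 it was 14.6% and 13.5% (exact 95% interval 12.5 to 14.7 in line 14). Over the 8 libraries with at least 50 counts for the pair, the share therefore ranged from 13.5% to 20.4% while the Zic1 level ranged from 2.35 to 53.9 CPM. Per kilobase, Zic1 was 7.08 to 11.6 times Zic4 in these libraries, a ratio that depends on the annotated exon lengths.

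Zic5 made up 19.5%, 17.1% and 15.4% of the counts of its pair in WT primary cells and 25.4%, 23.1% and 21.7% in primary cells labelled Prkd3-/-. In line 14 the share was 15.7% (14.7 to 16.7), within the WT primary range and below the 3 primary values labelled Prkd3-/-, and its interval did not reach that of primary clone 14 (17.9 to 29.0). In lines 13, 13a and 15 it was 100%, with lower exact limits of 71.5%, 71.5% and 95.4%, none of which reach the share of any primary library. The pair on chromosome 14 was thus counted as Zic5 alone in these 3 lines, besides a single Zic5 count in WT line 4, and neither Zic1 nor Zic4 was found at more than 6 counts without the other.

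**Figure D3:**
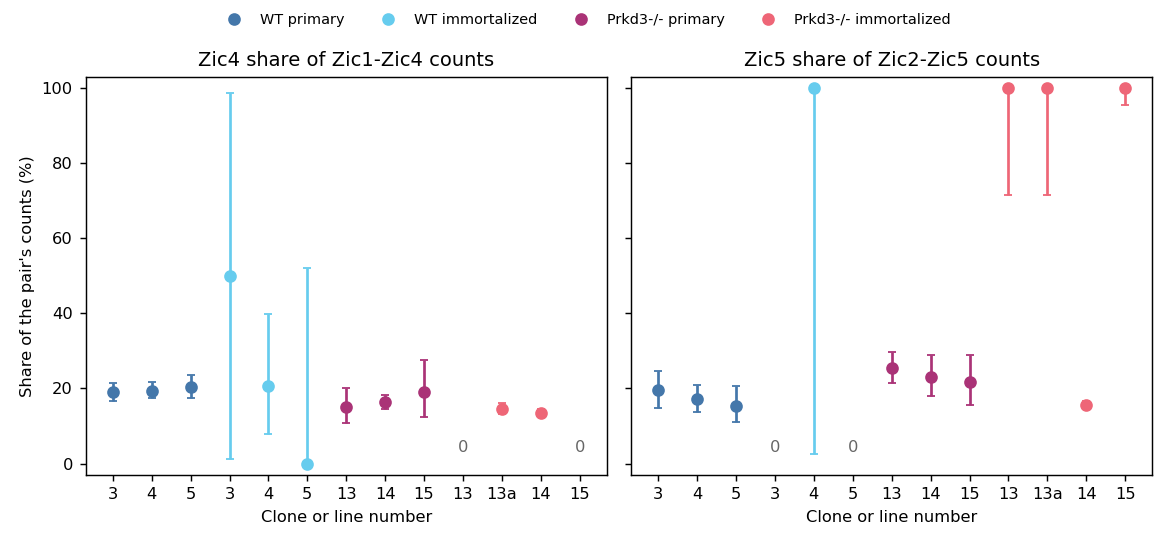
Share of each pair's counts that fell on Zic4 (left) or Zic5 (right), in percent, in the 13 libraries by clone or line number, with exact 95% binomial intervals and a grey 0 where neither gene had a count. The Zic4 share stays between 13.5% and 20.4% in all libraries with at least 50 counts, and the Zic5 share is 100% in lines 13, 13a and 15 and, from 1 count, in WT line 4.

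The same pattern could be described as likeness over libraries. Pearson's r of log2 CPM (prior count 1) over the 13 libraries was 0.98 between Zic1 and Zic4 and 0.80 between Zic2 and Zic5, and 0.56 to 0.76 across the pairs. These points share libraries, depth and the zeros of the lines, so r is a description. Zic4 was the gene most like Zic1 of all 21197, and Zic1 the gene most like Zic4, but Zic5 ranked 141 for Zic2 and Zic2 ranked 60 for Zic5. Within the 7 lines Zic4 ranked 4 for Zic1 and Zic1 ranked 5 for Zic4 (31 and 10 with a prior count of 0.1). Beside the members, the 5 genes most like Zic1 were Igfbp5, a binding protein of insulin-like growth factors, Ninj1, Twf2, Ppp2r2b and Sh3gl2 (r = 0.94 to 0.95), and the 5 most like Zic4 were Ppp2r2b, Sh3gl2, Chn2, Ninj1 and Igfbp5 (0.94 to 0.96). For Zic2 they were 2610035F20Rik, Eya2, Lrrn2, Tmem132c and Gm15594 (0.94 to 0.98), and for Zic5 they were Ntrk2, the receptor of brain-derived neurotrophic factor, Cdkn2d, Prokr1, Tnfrsf21 and Cog8 (0.88 to 0.95). With a prior count of 0.1, 3, 2, 3 and 2 of the 5 genes for Zic1, Zic4, Zic2 and Zic5 were named again.

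The gene most like Zic2, the noncoding 2610035F20Rik, is its neighbour, and its values were looked at for this reason. It was at 0.461, 0.218 and 0.450 CPM in WT primary clones 3, 4 and 5 and at 0 counts in the WT lines. In primary clones 13, 14 and 15 it was at 0.554, 0.149 and 0.283 CPM. In the lines it had 445 counts in line 14 (7.05 CPM, 47.4-fold over primary clone 14) and 0 in lines 13, 13a and 15, so that it was counted in the same 7 libraries as Zic2 and not in those where Zic5 was counted alone. A second noncoding gene, Gm37477, lies on the strand opposite to Zic4 and shares 468 exon bases with it, so its 14 and 23 counts in lines 13a and 14 can be reads of Zic4.

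Genes farther from the pairs were compared next. Within 1 Mb of the Zic1-Zic4 pair, 28 other genes are listed, of which 12 had no counts and 3 were tested in the WT state comparison, with none called. Within 1 Mb of the Zic2-Zic5 pair, 34 are listed and 13 were tested, of which edgeR called 1, Gpr183, a chemotactic receptor of immune cells (Log2FC -5.84, adjusted p = 0.00981), 491600 bases away. In line 14 against primary clone 14, the 3 genes tested around the chromosome 9 pair differed by -0.59 to 0.87 on the log2 scale. They lie 259562, 860402 and 886254 bases away, and no nearer gene was compared, Gm37477 within the pair not counted. Of 12 genes beside the chromosome 14 pair, 2610035F20Rik not counted, 10 differed by less than 1, beside 5.28 for Zic2 and 4.56 for Zic5. The others were Gpr183, with 668 counts in primary clone 14 and 1 in line 14, and Clybl, a mitochondrial enzyme gene 54561 bases away, at 1.14. Pcca, a carboxylase gene 54472 bases away on the other side, was at 0.34. Of these 12 genes, the 11 other than Gpr183 were all higher in line 14, by 0.0748 to 1.14.

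**Figure D4:**
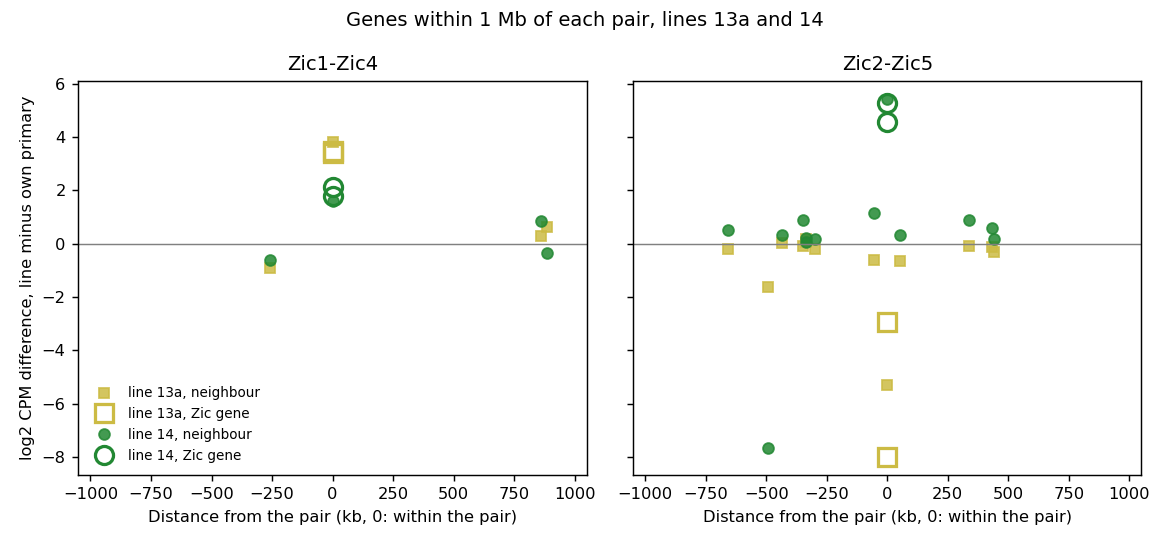
Difference in log2 CPM (prior count 1) between line 13a (squares) or line 14 (circles) and its primary library, against distance from the Zic1-Zic4 pair (left) and the Zic2-Zic5 pair (right) in kb, for genes that passed the filter (filled) and the Zic genes (open). Most neighbours differ by less than 1, while Zic2 and Zic5 in line 14 lie at 5.28 and 4.56, with 2610035F20Rik beside them at 5.44. The 11 other neighbours of this pair, Gpr183 left out, all lie above 0 in line 14.

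Other genes of the Zic and Hedgehog circuit were read from lists of 59 genes in all. In the WT state comparison 47 were tested, and edgeR called 0 higher and 1 lower (median Log2FC -0.10, beside 0.04 over all genes tested). Over all 19836 genes it called 361 (1.82%), of which 349 were lower (1.76%). The number of listed genes called depended on the setting. It was 9 under DESeq2, which called 5.94% of all genes, 4 with no filter on low counts, 0 with at least 10 counts in every library, and 0 with the embryo as a replicate block, where edgeR called no gene at all (0%, with 2784 at an unadjusted p under 0.05). The gene called by edgeR was Meox2, a homeobox gene of the somites, at 8.81, 8.36 and 10.9 CPM in WT primary cells and 0 to 0.0169 CPM in the WT lines (Log2FC -9.53, edgeR adjusted p = 0.000587). None of 46 was called in the Prkd3-/- state comparison (4 under DESeq2), none of 49 in the difference between genotypes and none of 41 between lines. In primary cells 1 of 48 was called lower in those labelled Prkd3-/-, the growth factor gene Bmp4, which acts on the dorsal neural tube (Log2FC -1.25, edgeR adjusted p = 0.00948). Other settings called 0 to 5 listed genes there.

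The Gli genes, the relatives that carry the Hedgehog signal, were counted in every library, with Gli3 at 63.7 to 190.7 CPM, and none of Gli1, Gli2 and Gli3 was called. Ptch1, the Hedgehog receptor and a target of the pathway, was at 21.6 to 23.4 CPM in WT primary cells and 15.1 to 38.0 CPM in WT lines (Log2FC 0.24, edgeR adjusted p = 0.732). Of the ligands, Shh was at or below 0.102 CPM in every library. Dhh was the only ligand tested by edgeR, which did not call it (Log2FC -2.79 in the WT and -4.29 in the Prkd3-/- state comparison). DESeq2 called Dhh lower in both (Log2FC -2.82, adjusted p = 0.00744, and -4.34, adjusted p = 7.53e-05). Cdon, listed with the receptors, was at -1.48 in WT (edgeR adjusted p = 0.0204, not called) and was called lower by DESeq2 (adjusted p = 6.65e-07). In the Prkd3-/- state comparison Cdon was at 0.23 (edgeR, not called).

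Of the listed genes whose proteins bind Zic proteins, 8 of 8 were tested and edgeR called 0 in any comparison. Mdfi, an inhibitor that can hold Zic proteins in the cytoplasm, was at 22.4 CPM in line 14, above the 0.129 to 7.40 CPM of the other 12 libraries, in a single library and with no replicate check. Rnf180, a ubiquitin ligase known to act on ZIC2, was at 2.86 to 2.94 CPM in WT primary cells and 0.0676 to 0.454 CPM in WT lines (Log2FC -3.57, edgeR adjusted p = 0.0349, not called). DESeq2 called Rnf180 lower in WT lines (Log2FC -3.58, adjusted p = 1.08e-08) and in lines labelled Prkd3-/- (Log2FC -2.93, adjusted p = 0.00813), where edgeR gave -2.91 (adjusted p = 0.535).

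Markers of neural cells and glia were read beside the Zic genes. Sox1, Elavl3 and Olig2, which define neural progenitors and neurons, were below 0.1 CPM in all 4 groups. Of the 10 neural genes, 4 or 5 reached 1 CPM and 4 were under 0.1 CPM in each group. Their sum was 157.3 CPM in line 14, of which Nes, a gene that cultured fibroblasts also express, made up 63.8, Tubb3 54.2 and Map2 39.1 CPM. It was 209.9 to 225.5 CPM in WT primary cells, 152.0 to 897.3 CPM in WT lines, 201.3 to 243.8 CPM in primary cells labelled Prkd3-/- and 87.2 to 348.7 CPM in their lines. The highest sums were those of WT line 3, and of line 13, where Sox2, a gene of neural progenitors, was at 58.05 CPM. Sox10, which defines glia and neural crest, was at 0 counts in all 4 lines labelled Prkd3-/-. The 6 glial genes summed to 13.01 CPM in line 14, of which S100b made up 11.6 CPM, beside at most 4.56 CPM in any other library. The part of these cells in the Zic values was not tested.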

How the data were processed

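The authors sequenced poly-A RNA of 13 MEF libraries. Per the submitters' notes and the file header, pairs were checked with FastQC 0.12.0, mapped with STAR 2.7.10a to mm10 (GRCm38), handled with SAMtools 1.18 and counted with featureCounts of Subread 2.0.6 on Ensembl genes, without strand and for every gene overlapped. Raw counts, not normalized, were deposited in 2 tables, 1 per genotype. That of Prkd3-/- carries no command line, but lists the same genes and lengths, and its steps are not given in the sources used here.

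Counts were used as deposited and fitted with edgeR 4.0.16 in R 4.3.3 (robust quasi-likelihood test, TMM, filterByExpr, Benjamini-Hochberg adjustment), with calls at an adjusted p under 0.01 and a |Log2FC| of at least 1, or under 0.05 for the difference between genotypes. CPM are TMM-normalized, and SEs were taken from |Log2FC| and the root of the F statistic. The fits were tested on simulated counts. Alternatives were DESeq2 1.42.0, its size factors, dropping the filter, requiring 10 counts in each library, each library left out, the embryo as a block, lines 13 and 13a summed, and a prior count of 0.1 for likeness.

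Same-numbered libraries come from the same embryo or clone and are paired. Their deviations from the group means correlated at -0.0393 to 0.0186 across genes in WT and -0.283 to 0.141 in Prkd3-/-. In each genotype 2 of the 3 primary libraries correlated best with a line of another number, in WT at 0.0244 and 0.0616. Nothing says that lines 13 and 13a came from separate animals, so p-values there partly measure spread within a clone. Of 55487 identifiers 55141 had a symbol, and all 4 members matched. No mitochondrial gene had counts.

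The members, gene lists and tests were chosen with earlier results of these data known. Named genes are the 4 members, listed genes that were called or bear on Zic proteins, called or nearest neighbours within 1 Mb, and the 5 genes most like each member. 2610035F20Rik, Gm37477, Clybl and Pcca, as well as values in single lines, were singled out after their values were seen. The values of a listed gene are not reported here.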

Additional observations from a re-analysis of the deposited data

Results flagged for a closer look

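Among the 4 lines labelled Prkd3-/-, line 14 stood apart from the others for Zic2, Zic5 and 2610035F20Rik. The gap between line 14 and the next line, divided by the range of the 4, was 1 for Zic2, 0.927 for Zic5 and 1 for 2610035F20Rik, all above Dixon's 95% critical value for 4 samples. For Zic2 and 2610035F20Rik the other lines had 0 counts, so this ratio is 1 whatever the level in line 14. Zic1 and Zic4, with line 13a as the next line, gave 0.514 and 0.468. About 1 in 20 groups of normally distributed values exceeds the critical value by chance. The 3 genes lie side by side, and the levels of the Zic genes in these lines entered their choice. 2610035F20Rik was singled out for its likeness to Zic2. These ratios are therefore a description and not a test.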

How the results depend on the processing

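Under DESeq2 the genes called numbered 1361 for the WT state comparison (361 in edgeR), 190 for that of Prkd3-/- (0), 37 for the difference between genotypes (0), 836 for the genotypes in primary cells (156) and 178 for those in lines (8). With at least 10 counts in every library they were 157 in the WT state comparison and 88 between primary genotypes, and with no filter 335 in the latter. With the replicate block, 0 genes were called in the WT state comparison, and in the 2 others that allow a block the count was also 0. Leaving out a library gave 48 to 743 calls in the WT state comparison (48, 50 and 66 without primary 3, 4 and 5, 743 without line 5), 0 to 2 for the difference between genotypes (2 without line 14), 2 to 1456 between primary genotypes (2 without WT 3 or WT 4, 27 without WT 5, 1456 without clone 14, 75 without clone 15) and 0 to 10 between lines (2 without WT line 3, and 0 without WT line 4 or 5 or line 13a, 14 or 15). The causes were not tested. Log2FC of Zic5 between primary genotypes ranged from -0.0867 (without clone 13) to 0.562 (without clone 14). Zic1, Zic2 and Zic4 kept their sign there, and the 4 members kept it in the WT state comparison, under every alternative run. Another scaling moved all 104 CPM values of members by less than the SD of their group. Genes counted at 0 are limited by depth, and 3 or 4 libraries per group limit the precision.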

Other observations

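Line 14 also held transcripts of listed genes of the sclerotome, the part of the somite that forms the vertebrae. Pax1, Pax9 and Nkx3-2 were at 41.3, 16.6 and 26.4 CPM in line 14, beside 3.86, 4.58 and 0.948 CPM in primary clone 14. Pax1 was also at 26.8 CPM in WT line 4, where Zic1 had 23 counts, and Pax9 at 27.5 CPM in line 13a. Pax3, a gene of the dorsal neural tube and somite, was at 23.2 CPM in line 15 and 3.77 CPM in line 14. Lmx1b, a gene of the roof plate and limb, was at 46.4 CPM in line 13, where Zic1, Zic2 and Zic4 had 0 counts. These values come from single libraries, were picked after they were seen and have no test. Other listed genes went the other way. Of the 15 somite and dermis genes, 12 were tested by edgeR in the Prkd3-/- state comparison, and 4 had a negative Log2FC. Among these was Meox2 (-4.21), and Uncx was at -3.96 in DESeq2.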
